A study of Caenorhabditis elegans with 48 samples.

Results

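The strands of mir-357 and mir-358, a pair of neighbouring microRNA genes of Caenorhabditis elegans, were followed over the first larval hours in wild-type animals and in animals without lin-28. All rows of the count table whose names start with miR-357- or miR-358- were taken, which gave 4 of 437 strands: miR-357-3p, miR-357-5p, miR-358-3p and miR-358-5p. The pair was chosen by its measured levels in these same libraries, since miR-357-3p had been seen to be higher in lin-28(0) at late hours. The genotype difference, rise with time and rhythm of miR-357-3p are therefore given as descriptions, with no test.

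The study asked how microRNA levels change through larval development and what LIN-28 contributes. Small RNAs of whole larvae were sequenced each hour from 0 to 23 h in 2 strains, with 1 library per strain and hour and 48 libraries in all. WT was strain HW1993, which carries the reporter xeSi312 (luciferase and GFP under the eft-3 promoter, with unc-119(+)) on chromosome IV. The strain called lin-28(0) was HW2706, which carries the same reporter and lin-28(xe192), a deletion of the gene on chromosome I. Each strain was started as synchronized L1 larvae and sampled from a liquid culture, with no treatment. The hours of a strain are therefore successive samples and not separate cultures. The p-values of fits over time measure only the spread of the libraries around a smooth time course. The permutation tests treat hours as independent of one another, which successive samples of 1 culture need not be. Changes in whole larvae cannot tell fewer cells that hold a strand from less of it per cell. The table holds microRNAs only, so the loss of lin-28 itself was not checked.

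A microRNA precursor is a hairpin that is cut into a duplex of 2 strands, named 5p and 3p after the arm they come from. As a rule one strand, the guide, is kept by an Argonaute protein and directs the repression of messenger RNAs, while the other, the passenger, is degraded. LIN-28 is an RNA-binding protein of the heterochronic pathway, which times cell fates in worm larvae, and is best known for blocking the maturation of let-7. In the Ensembl annotation of the WBcel235 genome, mir-357 and mir-358 lie next to each other on chromosome V on the same strand, with 0 genes between them. Both lie within the span of symk-1, which is read from the opposite strand, and 0 exons of other genes overlap the stretch. The study lists both among microRNAs that rise late in larval life in another time course, together with miR-85, miR-359, miR-240 and miR-786. It places that rise late in the third larval stage of animals grown on plates, and reports slower development in the liquid culture used here. The libraries described here end at 23 h, although the study collected the liquid culture for longer. The larval time of that rise may therefore lie outside these samples, which was not tested.

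Library totals ran from 2315421 counts (WT, 15 h) to 20757531 counts (WT, 2 h) in WT and from 2996370 (12 h) to 15317364 (2 h) in lin-28(0). Levels are given as CPM, the counts of a strand scaled to a library of 1000000 counts, and intervals are exact Poisson limits at 95%, which cover counting error only. The lin-28(0) libraries of 1, 2 and 3 h stood apart from their neighbours: miR-90-3p and miR-228-5p together held 17.8% of their counts on average, against 7.86% over the remaining 5 of the first 8 lin-28(0) hours and 9.59% in WT at 1 to 3 h. Those libraries also held the 3 lowest miR-357-3p levels of lin-28(0), and values without them are given beside the results below that rest most on them.

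Nearly all the signal of the pair was a single strand. miR-357-3p had 7064 counts over the 48 libraries and a mean of 19.5 CPM, which placed it 166th of the 437 strands. Its partner miR-357-5p had 15 counts in all, so the 3p strand made up 99.8% of the mir-357 counts (95% Wilson interval 99.7 to 99.9). miR-358-3p had 141 counts and miR-358-5p had 45, and the 3p share of mir-358 was 75.8% (69.2 to 81.4). Of the 4 strands, 1 (miR-357-3p) was among the 246 that reached a mean count of 10, the minimum for the fits across strands. The other 3 strands are described from their counts.

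In WT, miR-357-3p made a first hump and then fell back. It lay between 8.42 CPM (4 h) and 13.3 CPM (3 h) in the 8 libraries of 0 to 7 h, with a median of 11.5 CPM. It went from 10.4 CPM at 8 h to 19.1 CPM by 9 h, and was highest at 11 h (24.4 CPM, from 84 counts) and nearly as high at 12 h (24.3 CPM). It was down to 9.50 CPM at 15 h, a library with 22 counts of the strand and an interval of 5.95 to 14.4 CPM. From 16 to 23 h the 8 libraries had a lowest value of 12.5 CPM, a median of 13.1 CPM and a highest value of 22.3 CPM at 21 h. A second, single-library high point thus stood at 21 h, and the last library, at 23 h, was at 12.6 CPM, within the range of the first 8 hours.

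In lin-28(0), miR-357-3p rose higher, fell only in part and rose again. The 8 libraries of 0 to 7 h lay between 5.42 CPM (2 h) and 14.5 CPM (0 h), with a median of 11.1 CPM. The level had reached 15.1 CPM by 9 h and 21.2 CPM by 11 h, was 37.0 CPM in both libraries of 12 and 13 h, and stood at 39.8 CPM by 15 h. It then went down to 18.2 CPM at 19 h. From there each library was higher than the one before, with 22.8, 32.6, 53.0 and 65.1 CPM at 20, 21, 22 and 23 h, the last of these being the highest of all 48 libraries. Every library from 9 h on lay above the highest of 0 to 7 h in lin-28(0), whereas no hour met that rule in WT. So the name late-rising fits miR-357-3p in lin-28(0) over these hours, but WT ended near its starting level.

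**Figure D1:**
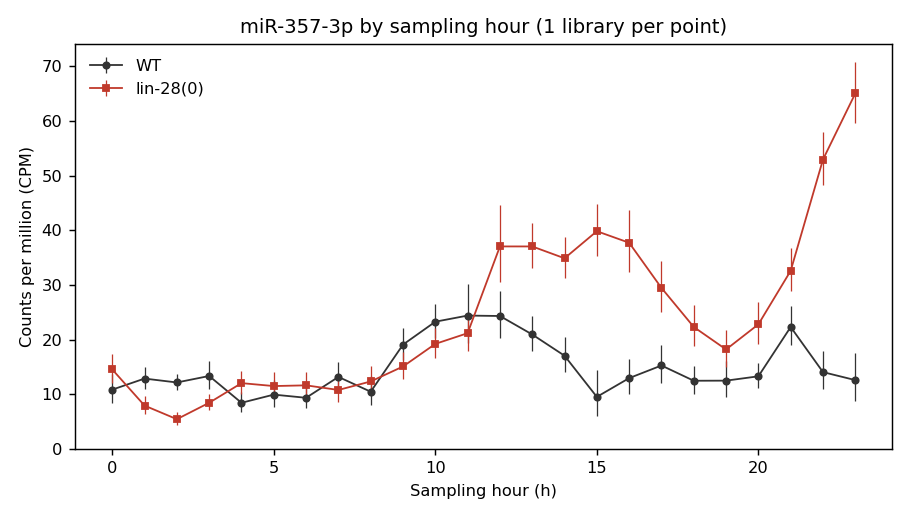
Level of miR-357-3p in CPM (linear axis) against sampling hour, 1 library per point, for WT (black circles) and lin-28(0) (red squares). Bars are exact 95% Poisson limits. WT is highest at 11 h (24.4 CPM), while lin-28(0) stays at 34.9 CPM or more from 12 to 16 h and reaches 65.1 CPM at 23 h.

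Hour by hour, the strains changed order for the last time between 11 and 12 h. miR-357-3p was lower in lin-28(0) than in WT at 9, 10 and 11 h, with ratios of 0.790, 0.825 and 0.868, and higher at each of the 12 hours from 12 to 23 h. Over those 12 hours the ratio was lowest at 19 h (1.46, interval 1.06 to 2.03) and highest at 23 h (5.17, interval 3.66 to 7.55). It was also high at 15 h (4.19, interval 2.71 to 6.80) and 22 h (3.77, interval 2.91 to 4.95). WT was low at 15 h (9.50 CPM), whereas at 22 h it was at 14.0 CPM, above its median of 16 to 23 h, and the lin-28(0) level was 53.0 CPM. Of the first 8 hours, 4 had the higher level in lin-28(0), and the lowest ratio, 0.446, fell at 2 h, 1 of the 3 libraries that stood apart. Of the 24 lin-28(0) libraries, 9 lay above the WT maximum of 24.4 CPM, all of them from 12 to 23 h.

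**Figure D2:**
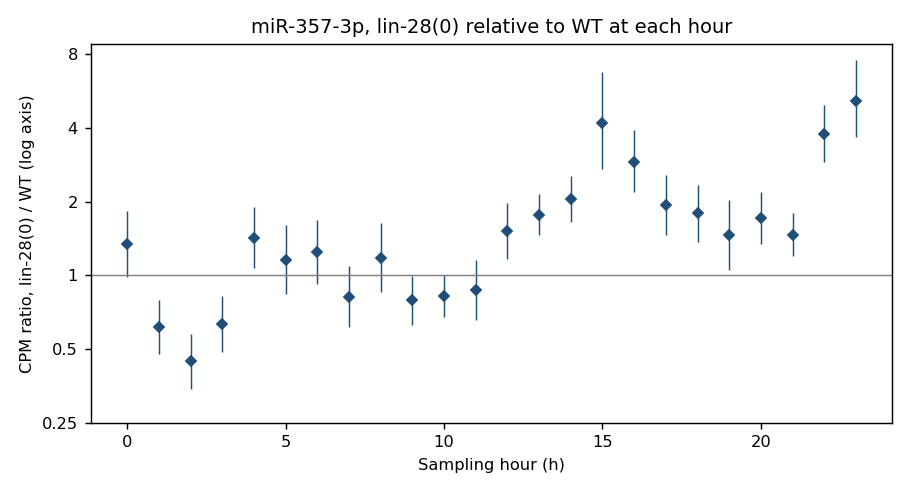
Ratio of miR-357-3p CPM in lin-28(0) to that in WT at each sampling hour, on a log axis. Each diamond is 1 library of each strain, and bars are exact 95% limits from the counts. The 12 ratios from 12 to 23 h all lie above 1, from 1.46 (19 h) to 5.17 (23 h).

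The windows summarise this. From 16 to 23 h miR-357-3p averaged 35.1 ± 16.3 CPM in lin-28(0) and 14.4 ± 3.33 CPM in WT (SD, n = 8 hours each), and the groups overlapped, since the lowest lin-28(0) library (18.2 CPM) lay under the highest WT library (22.3 CPM). From 8 to 15 h the means were 27.1 ± 11.2 and 18.6 ± 5.92 CPM, and from 0 to 7 h they were 10.3 ± 2.86 and 11.2 ± 1.89 CPM (12.1 ± 1.44 CPM in lin-28(0) without 1 to 3 h). In the spline fit across all tested strands, on the log2 scale, the difference of lin-28(0) minus WT was 1.17 (SE 0.14) from 16 to 23 h, 0.45 (SE 0.13) from 8 to 15 h and -0.19 (SE 0.14) from 0 to 7 h. The late value ranked 5th from the highest of 246 strands, whose median was 0.04, and 7.72% of strands passed the threshold of an adjusted p under 0.01 in that window in either direction. That share is given for scale only, because the strand was selected on this contrast.

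The early and middle windows depended on which libraries were lined up. With the 3 early lin-28(0) libraries that stood apart left out, the value from 0 to 7 h was 0.16 (SE 0.19). When lin-28(0) hours were moved 2 h later, the value from 8 to 15 h was 0.01, and when they were moved 2 h earlier it was 0.74, while the late value was 1.00 and 1.31. Moving them later left out the lin-28(0) libraries of 22 and 23 h (53.0 and 65.1 CPM). Moving them earlier left out the WT libraries of 22 and 23 h and cut the late window by 2 h. The lin-28(0) time course of the other 245 tested strands matched WT best when its hours were divided by 1.12 (correlation across strands and hours 0.85, against 0.77 without scaling). With that scaling, which reaches 20 h, the late difference of miR-357-3p was 1.31 (SE 0.16), against 0.90 (SE 0.15) at equal hours up to 20 h.

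Within each strain, the fitted mean of 20 to 23 h was set against that of 0 to 3 h. miR-357-3p was higher by 0.42 (SE 0.17) on the log2 scale in WT and by 2.30 (SE 0.22) in lin-28(0). The measured means behind these were 12.3 ± 1.09 CPM early and 15.5 ± 4.54 CPM late in WT, and 9.07 ± 3.87 CPM early and 43.3 ± 19.2 CPM late in lin-28(0) (SD, n = 4 hours each). In WT the late mean rested on the library of 21 h, since the other 3 late libraries were between 12.6 and 14.0 CPM. In lin-28(0) the change was 1.59 (SE 0.30) without the libraries of 1 to 3 h. Of 0 to 3 h this left only the 0 h library (14.5 CPM), and the fit still read the curve at the hours left out. Without the 23 h library the fitted change was 2.81 (SE 0.25). That fit still read the curve at 23 h, where it had no library. The late lin-28(0) libraries left were at 22.8, 32.6 and 53.0 CPM, so 2.81 is no check on measured levels. All tested strands had a median change of -0.21 in WT and 0.10 in lin-28(0).

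The hump and second rise of miR-357-3p were also described as a rhythm. Many C. elegans transcripts oscillate once per larval stage, in step with the molts. The libraries of 5 to 23 h were fitted with a linear trend and a cosine curve of free phase and a 9 h period. In WT the amplitude was 0.47 on the log2 scale, with fitted peaks at 11.6 and 20.6 h. In lin-28(0) the amplitude was 0.42, with fitted peaks at 13.7 and 22.7 h. With an 8 h period the amplitudes were 0.33 and 0.27, and with a 10 h period 0.49 and 0.57. No p is given, since the levels fitted are those on which the strand was selected, and the span covers about 2 periods of 1 culture.

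miR-358-3p, from the neighbouring hairpin, stayed low and showed no late rise. Its highest level was 0.820 CPM in WT (0 h, 5 counts) and 1.00 CPM in lin-28(0) (12 h, 3 counts). It had 0 counts in 5 WT and 5 lin-28(0) libraries, and 3 counts in the deepest of all libraries correspond to 0.145 CPM. In WT the mean was 0.467 CPM from 0 to 7 h and 0.233 CPM from 16 to 23 h, and the 8 late libraries were all at or below the early maximum. The difference of -0.234 CPM did not pass an exact two-sided permutation test over the 8 and 8 libraries (p = 0.13, adjusted over 5 tests of the mir-358 strands p = 0.21). In lin-28(0) the means were 0.534 and 0.241 CPM, with a difference of -0.293 CPM (exact two-sided permutation p = 0.050, adjusted p = 0.21), and without the libraries of 1 to 3 h it was -0.301 CPM (exact permutation p = 0.064). Fitted with no minimum count, the change of miR-358-3p from 0 to 3 h to 20 to 23 h was -0.92 (SE 0.68) in WT and -2.42 (SE 0.97) in lin-28(0) on the log2 scale, neither past the threshold (edgeR adjusted p = 0.28 and 0.041). Without 1 to 3 h the lin-28(0) value was -3.30 (SE 1.24, edgeR adjusted p = 0.038). That fit still read the curve at 1 to 3 h, where it had no library.

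Between the strains miR-358-3p differed by 0.047 ± 0.386 CPM (lin-28(0) minus WT, mean and SD over 24 hours), higher in lin-28(0) at 11 of 24 hours (two-sided sign-flip permutation p = 0.56, 100000 resamples). Over the 21 hours other than 1 to 3 h the difference was 0.058 CPM (permutation p = 0.46). Pooled over the late window it had 10 counts in WT, or 0.210 CPM (95% interval 0.101 to 0.387), and 12 in lin-28(0), or 0.220 CPM (0.114 to 0.385). The ratio of the pooled levels, lin-28(0) over WT, was 1.05 with an exact 95% interval of 0.415 to 2.71, wide enough at this depth to hold the pooled late ratio of miR-357-3p, 2.53. Up to 23 h, the last hour of these libraries, the levels of mir-358 thus gave no basis for the name late-rising in either strain. Later hours were not analysed here.

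miR-358-5p was lower still, with at most 0.492 CPM in WT (0 h) and 0.592 CPM in lin-28(0) (11 h) and 0 counts in 12 and 13 of the 24 libraries. Its mean went from 0.209 to 0.0831 CPM in WT and from 0.130 to 0.0717 CPM in lin-28(0) between the first and the last 8 hours, and neither difference passed (exact permutation p = 0.13 and 0.46, and 0.41 in lin-28(0) without 1 to 3 h). The log2 ratio of miR-358-3p to miR-358-5p, with 1 CPM added to each, averaged 0.21 in WT and 0.28 in lin-28(0). The difference of 0.07 ± 0.47 (SD, 24 hours, higher in lin-28(0) at 12) did not pass (two-sided sign-flip permutation p = 0.47). With such low counts the added 1 CPM outweighs the measured levels, so the ratio is pulled towards 0.

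miR-357-5p had 7 counts in WT and 8 in lin-28(0) over all hours, in 4 and 5 libraries. Over the late window it had 3 counts in each strain, or 0.0631 CPM in WT (95% interval 0.0130 to 0.184) and 0.0551 CPM in lin-28(0) (0.0114 to 0.161). The partner strand of miR-357-3p thus lay near the detection limit in both strains at the hours when the 3p strand was most different.

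**Figure D3:**
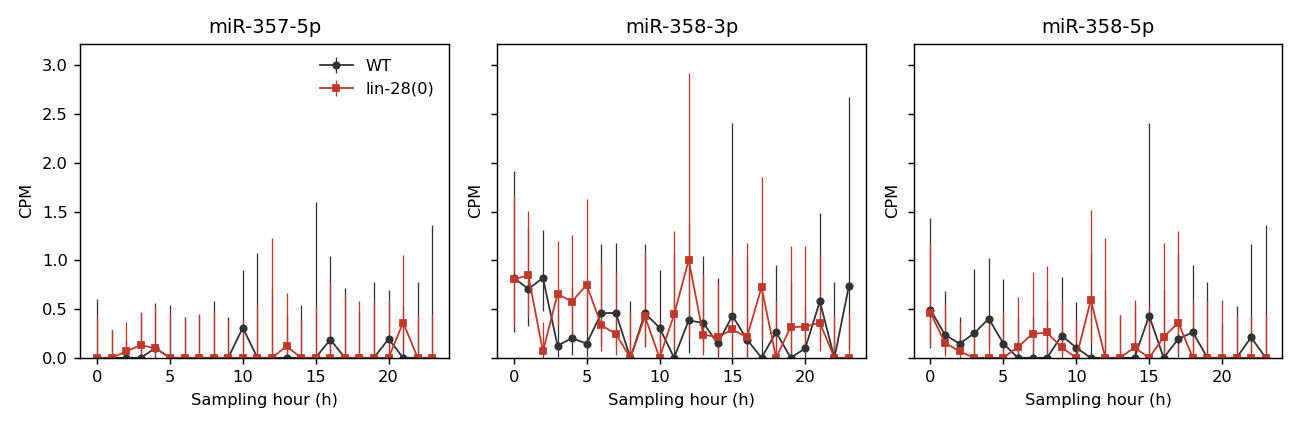
Levels in CPM of miR-357-5p, miR-358-3p and miR-358-5p against sampling hour for WT (black circles) and lin-28(0) (red squares), 1 library per point, with exact 95% Poisson limits. No library goes above 1.00 CPM (miR-358-3p, lin-28(0), 12 h), and none of the panels has the late rise seen for miR-357-3p.

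As the neighbours are read from the same strand, their 3p strands were set beside each other within each library. In WT there were 21.8 counts of miR-357-3p per count of miR-358-3p from 0 to 7 h (95% interval 16.0 to 30.3) and 69.4 from 16 to 23 h (37.5 to 145). In lin-28(0) the ratio was 18.5 early (13.7 to 25.4), or 22.3 (14.8 to 35.1) without 1 to 3 h, and 168 late (95.7 to 325). Across libraries the log2 levels had a Pearson r of -0.15 over all 48 and of -0.05 and -0.26 within WT and lin-28(0), which share depth and culture and, for miR-358-3p, rest on few counts.

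The strand whose time course was most like that of miR-357-3p was miR-799, with a Pearson r of 0.83 over the 48 libraries (log2 of CPM plus 1, 0.66 within WT and 0.91 within lin-28(0), 0.82 over the 45 libraries left without the lin-28(0) ones of 1 to 3 h). Next came miR-77-5p (0.70), miR-65-3p (0.69), miR-75-3p (0.67) and miR-70-3p (0.67), all among 245 strands compared. In the same order, their values were 0.92, 0.76, 0.76 and 0.88 within lin-28(0), and 0.50, 0.42, 0.26 and 0.56 within WT. Within lin-28(0) alone, miR-77-5p was thus as close as miR-799. These values describe libraries that share hours and cultures and carry no test. In lin-28(0) miR-799 averaged 0.973 CPM over 0 to 3 h, had risen to 11.7 CPM by 12 h, was down to 6.01 CPM by 19 h and was up again to 19.9 CPM by 22 h, so it too had 2 rises there. Its WT levels at 12, 18, 21 and 23 h were 6.51, 9.05, 8.69 and 2.59 CPM. The highest of them, at 18 h, fell where miR-357-3p was low in WT (12.5 CPM). For miR-358-3p the nearest strand, miR-83-5p, had an r of 0.50, and the next were miR-1022-3p (0.47), miR-4813-3p (0.44), miR-1817 (0.43) and miR-74-3p (0.43).

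The other microRNAs that the study groups with this pair as late risers did not move as 1 block over these hours, which may end before the rise the study describes. Of the 9 strands of these (miR-85, miR-359, miR-240 and miR-786) and of miR-785, which it lists as invariant, in the table, 5 reached the count minimum. They were miR-85-3p, miR-359, miR-240-5p, miR-785-3p and miR-240-3p, the rarer strand of mir-240 (543 counts against 2511). No strand of miR-786 reached it. The counts and medians of these strands therefore do not describe the late risers alone. In WT 1 of these 5 rose from 0 to 3 h to 20 to 23 h, 1 fell and 3 did not pass, with a median of 0.28, while over all tested strands 28% rose and 34.6% fell. In lin-28(0) 2 of 5 rose and 0 fell, with a median of 0.27, against 34.1% and 27.6% of all strands. None of the 5 passed for the genotype difference from 16 to 23 h (edgeR adjusted p from 0.044 to 0.66), in the window where 7.72% of all strands did. From 0 to 7 h 1 of the 5, miR-785-3p, was lower in lin-28(0), and 6.1% of all strands were.

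miR-240-5p was the steep riser in both strains. Its WT levels at 19, 20, 22 and 23 h were 7.40, 20.4, 67.0 and 128 CPM, and its change was 5.70 (SE 0.49, edgeR adjusted p = 2.0e-09). In lin-28(0) the same hours gave 1.26, 4.14, 24.6 and 41.4 CPM, with a change of 4.47 (SE 0.51, edgeR adjusted p = 6.2e-08). Without the libraries of 1 to 3 h the change was 3.24 (edgeR adjusted p = 0.0020), from a fit that still read the curve at those hours. Every library lay above its maximum of 0 to 7 h from 19 h on in WT and from 20 h on in lin-28(0). By that rule the hour for miR-357-3p in lin-28(0) was 9 h. These hours do not mark the first rise of miR-240-5p. It had been above its early maximum at 8, 11 and 12 h in WT, and at 8, 11, 13 and 14 h in lin-28(0). It was then below that maximum from 13 to 18 h in WT and from 15 to 19 h in lin-28(0). The late genotype difference of miR-240-5p, -0.99 (SE 0.36), did not pass (edgeR adjusted p = 0.044), and it was above 0 in 2 of 33 alternative fits. It was -2.05 (adjusted p = 4.3e-06) with lin-28(0) hours moved 2 h later, but 0.54 (adjusted p = 0.33) with them moved 2 h earlier and 1.12 (adjusted p = 0.16) with tempo-scaled hours. With hours moved earlier or tempo-scaled, the late window held no library of either strain at 22 or 23 h. The WT libraries of those hours, at 67.0 and 128 CPM, were thus left out, and the tempo-scaled fit ended at 20 h. The unscaled fit up to 20 h was not among the fits above 0, whereas the tempo-scaled fit up to 20 h gave 1.12. For hours moved earlier no unscaled fit over the same hours was run, so alignment and hours compared were not separated there.

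miR-359 fell in WT, from 7.40 ± 1.22 CPM at 0 to 3 h to 3.40 ± 1.11 CPM at 20 to 23 h (SD, n = 4 hours each), a change of -1.08 (SE 0.27, edgeR adjusted p = 0.0012), which became adjusted p = 0.011 without hour 0. In lin-28(0) its change was -0.06 (SE 0.20). miR-85-3p rose in lin-28(0) by 0.89 (SE 0.23, edgeR adjusted p = 0.0012), from 5.70 ± 2.39 to 9.19 ± 2.34 CPM, and this call was lost without the libraries of 1 to 3 h (adjusted p = 0.12), without hour 0 (adjusted p = 0.040) and with total counts as the scale (adjusted p = 0.021). miR-240-3p passed in neither strain. The change of miR-785-3p in WT was -0.59 (SE 0.22, edgeR adjusted p = 0.020). It passed in the fits without hour 0 (-1.07, adjusted p = 3.3e-04) and without the 23 h library (-1.08, adjusted p = 0.0033). Both fits, like those above without hour 0 or 1 to 3 h, still read the curve where libraries were left out. They are therefore not calls on measured hours alone. Measured WT levels of miR-785-3p were 66.9, 79.2 and 33.9 CPM at 20 to 22 h, and averaged 89.7 CPM at 0 to 3 h. Its genotype difference from 0 to 7 h was -0.58 (SE 0.13, edgeR adjusted p = 6.8e-04), which no longer passed once 1 to 3 h were left out of lin-28(0) (adjusted p = 0.045).

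**Figure D4:**
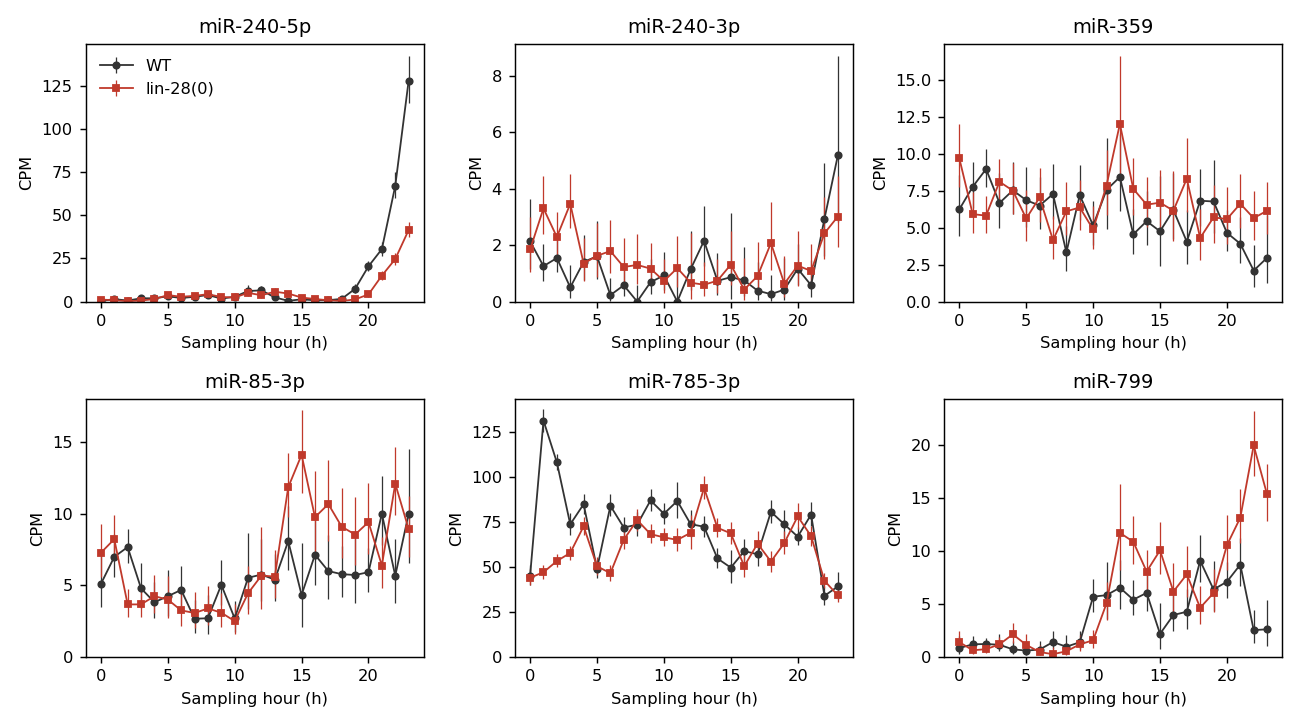
Levels in CPM of the 5 measured comparison strands and of miR-799 against sampling hour for WT (black circles) and lin-28(0) (red squares), 1 library per point, with exact 95% Poisson limits. miR-240-5p climbs by 23 h to 128 CPM (WT) and 41.4 CPM (lin-28(0)), and miR-799 reaches 19.9 CPM in lin-28(0) at 22 h.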

How the data were processed

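Small RNAs of 48 libraries (24 hours in each of 2 strains) were analysed from the deposited count table and grouped by the strain label. The authors trimmed reads, aligned them to ce10 with Bowtie (version not given in the sources used here) and counted reads starting near annotated mature 5' ends. Libraries were prepared with 2 kits in turn, and the sources used here do not say which reads entered the counts. The deposited log2 values were reproduced within 0.0005 as the log2 of counts scaled to the mean total plus 8, and were used only for that check. No 2 libraries were identical.

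Counts were fitted with edgeR 4.0.16 in R 4.3.3 (glmQLFit, glmQLFTest) with TMM factors from the whole table, on the 246 strands whose mean count reached 10. Sampling hour entered as a cubic B-spline (6 components), alone and in interaction with genotype, with windows of 0 to 7, 8 to 15 and 16 to 23 h. Change over time and rhythm were fitted per strain, and the planned rhythm test of miR-357-3p is given as a description because the strand was selected on these levels. P-values were Benjamini-Hochberg adjusted, with a threshold of 0.01. Sign-flip and exact permutation tests used scipy 1.17.1 and numpy 2.4.6. Fits were tested on simulated data. DESeq2 1.42.0, limma 3.58.1 and the other alternatives are given at the end.

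The members and lists were chosen with earlier results of these data known. Named strands were all strands of mir-357 and mir-358, those of the comparison microRNAs, and the 5 with the highest Pearson r with each 3p member. The permutation tests of mir-358 levels, TMM on the tested strands the comparison up to 20 h and some values without 1 to 3 h were chosen after seeing the data. Files use ce10, so WBcel235 was used for names and neighbours only.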

Additional observations from a re-analysis of the deposited data

How the results depend on the processing

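The difference of miR-357-3p from 16 to 23 h stayed above 0 in each alternative run, between 0.90 and 1.36 on the log2 scale, and with the sampling hour as a replicate block (libraries of equal hour paired across strains) it was 1.17. Leaving out single libraries of 16 to 23 h gave 1.09 to 1.36. The time change in lin-28(0) was 1.59 without its libraries of 1 to 3 h. Time-change fits with libraries left out still read the curve at those hours. The rhythm amplitude ran from 0.33 to 0.49 in WT and from 0.27 to 0.57 in lin-28(0). With TMM factors from the tested strands only, the WT time change was 0.64 against 0.42. The cause was not tested for any of these. The 19 strands called from 16 to 23 h became 12 with 4 spline components, 44 with lin-28(0) hours 2 h later and 29 without hour 0. Tempo-scaled hours, which reach 20 h, gave 10, with 7 higher and 3 lower in lin-28(0). Equal hours up to 20 h gave 7 higher and 9 lower. The strand ratio of mir-358 stayed between 0.02 and 0.11 and did not pass; it could not be computed over hours with at least 10 counts of both strands, since 0 hours had them. Depth limits the mir-358 strands and miR-357-5p, since miR-358-3p, miR-358-5p and miR-357-5p had under 3 counts in 28, 42 and 46 of 48 libraries.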
